A study of Mus musculus with 2 samples.

Results

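The genes of threonine, glycine and folate one-carbon metabolism were compared between inner cell masses (ICMs) and whole blastocysts of mouse embryos at the stage labelled E3.75. The set holds 10 named genes, Tdh, Gcat, Gldc, Shmt1, Shmt2, Mthfd1, Mthfd2, Mthfd1l, Mat2a and Ahcy, taken by their symbols from the deposited table. All 10 were matched among its 19559 genes. There was 1 library of ICMs, freed of the outer cells by immunosurgery (lysis with antibody and complement), and 1 library of whole blastocysts, which contain their own ICMs. Ratios below thus set a part against a whole that contains it, and are not ratios of ICM to outer cells. Both groups had B6CBAF1 mothers and CD-1 fathers, and no genetic alteration or treatment is labelled. The number of embryos behind each library is not known here, and there was no replicate, so nothing below is a test of the conditions. Intervals are 95% intervals that cover the counting error of reads only, since each group has 1 library. The amplified cDNA carried no molecular identifiers, so reads copied from the same molecule cannot be told apart. The intervals may therefore be too narrow even for counting error.

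One-carbon metabolism moves single carbon units, taken mainly from serine and glycine, onto tetrahydrofolate and on into purines, thymidylate and methionine. Serine hydroxymethyltransferases split serine into glycine and a folate-bound carbon, the glycine cleavage system releases a further carbon from glycine, and the MTHFD enzymes interconvert the folate forms, with separate enzymes in mitochondria and cytosol. The methionine cycle turns methionine into S-adenosylmethionine (SAM), the methyl donor of DNA and histone methylation, and clears the product S-adenosylhomocysteine. In mouse, threonine dehydrogenase (TDH) and its partner GCAT break threonine down to glycine and acetyl-CoA in mitochondria, and mouse embryonic stem cells, which derive from the ICM, are known to depend on this step.

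The genes did not move as a block. Ahcy, Tdh and Gcat, with 7 to 19 whole-blastocyst reads each, had a higher RPKM in the ICM library. Mat2a was 1.55-fold higher, Gldc and Mthfd1l were close to the whole blastocyst, and both Shmt genes, Mthfd1 and Mthfd2 were lower. RPKM divides the reads of a gene by its length and by the size of its library. On the scale of log2(RPKM + 1), which understates the change of low genes, 9 of the 10 genes reached an RPKM of 1 in either library and were compared. Of these, 2 were higher in the ICM by 2-fold or more, where 8.96% of all 8981 genes compared were, and 3 were at least 2-fold lower, where 44.0% of all genes were. Relative to the general shift described next, 3 were higher and 1 was lower by 2-fold or more, beside 16.9% and 20.5% of all genes. As deposited, their median difference was -0.30, beside -0.84 over all genes. The remaining gene, Gcat, did not reach the filter. Ahcy and Tdh, counted as higher on both scales, reached an RPKM of 1 only in the ICM. Their place among the genes compared thus depended on being high there, so the counts of higher genes are no support.

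Across the table, ICM values lay below whole-blastocyst values for most genes. Among the 3013 genes that reached an RPKM of 5 in each library, the median difference was -0.66, and values relative to it are called centred below. A centred ratio is 1.58 times the deposited one. The libraries held 4125479 reads on listed genes in the ICM and 9271198 in the whole blastocyst. Trophectoderm (outer layer) markers summed to an RPKM of 46.4 in the ICM and 1615 in the whole blastocyst, and 1 of 6, Elf5, had no ICM read. Krt18 made up most of these sums (29.4 in the ICM and 1418 in the whole blastocyst), and all 6 were lower in the ICM. Epiblast markers summed to 64.2 in the ICM and 17.4 in the whole blastocyst, and primitive endoderm markers to 98.3 in the ICM and 33.7 in the whole blastocyst. Of the primitive endoderm sums, Pdgfra made up 68.1 in the ICM and Gata6 31.2 in the whole blastocyst. Gata6 went against the sums and was lower in the ICM, at 22.7. Of 6 cumulus and uterine markers, 3 had no ICM read and 3 no whole-blastocyst read, with sums of 3.83 in the ICM and 44.1 in the whole blastocyst. Cyp19a1 went against these sums, with 91 reads in the ICM and 0 in the whole blastocyst. Blood and immune markers (3 of 4 matched) summed to 0.410 in the ICM and 3.71 in the whole blastocyst. Fibroblast markers summed to 7.49 in the ICM, nearly all of it Thy1, and 0.108 in the whole blastocyst. The part of these other cells in the differences below was not tested. In bulk samples fewer cells of a type and less RNA per cell cannot be told apart.

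The windows of 250 bases upstream of the annotated start are shown for a pair of methionine-cycle genes that were higher in the ICM and a pair of mitochondrial folate genes that were lower, to set the sequences of both directions side by side. They are RefSeq sequences of build GRCm38.p6, written 5′ to 3′ on the gene's strand, at chr2:155074498-155074747 (Ahcy, minus strand), chr6:72439557-72439806 (Mat2a, minus strand), chr10:127522445-127522694 (Shmt2, minus strand) and chr6:83317605-83317854 (Mthfd2, minus strand). Capitals mark CpG dinucleotides.
Ahcy: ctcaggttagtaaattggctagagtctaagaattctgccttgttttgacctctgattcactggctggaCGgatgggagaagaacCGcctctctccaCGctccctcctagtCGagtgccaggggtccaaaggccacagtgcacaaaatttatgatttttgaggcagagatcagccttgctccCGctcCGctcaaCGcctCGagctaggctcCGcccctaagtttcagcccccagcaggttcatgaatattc
Mat2a: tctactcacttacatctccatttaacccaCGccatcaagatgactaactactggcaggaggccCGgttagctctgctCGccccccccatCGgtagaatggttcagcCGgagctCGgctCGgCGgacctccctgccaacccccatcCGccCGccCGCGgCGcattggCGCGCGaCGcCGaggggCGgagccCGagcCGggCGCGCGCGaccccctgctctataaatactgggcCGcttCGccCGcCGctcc
Shmt2: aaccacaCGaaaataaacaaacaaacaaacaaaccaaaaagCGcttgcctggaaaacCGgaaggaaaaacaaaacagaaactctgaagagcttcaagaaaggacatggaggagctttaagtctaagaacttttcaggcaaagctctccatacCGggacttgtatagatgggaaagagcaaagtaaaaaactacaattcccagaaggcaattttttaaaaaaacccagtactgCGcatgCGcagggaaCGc
Mthfd2: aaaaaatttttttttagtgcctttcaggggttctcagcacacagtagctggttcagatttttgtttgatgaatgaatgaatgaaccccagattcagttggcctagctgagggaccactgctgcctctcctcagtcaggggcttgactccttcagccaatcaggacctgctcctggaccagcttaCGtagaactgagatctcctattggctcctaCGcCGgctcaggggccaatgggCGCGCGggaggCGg

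Mat2a had 29 CpGs in this window, at percentile 93.2 of the 32851 promoter windows of the table, whereas Ahcy had 9, Shmt2 7 and Mthfd2 7, beside a median of 6 over all windows. Windows were found for 9 of the 10 genes, all but Tdh. Gcat, Mat2a and Ahcy, higher in the ICM, had 17, 29 and 9 CpGs, and Shmt1, Shmt2, Mthfd1 and Mthfd2, lower in the ICM, had 13, 7, 15 and 7, so the numbers overlapped. None of the 9 held CACGTG, the E-box bound by MYC-family factors, or TGATGNAA, the core of the element bound by ATF4, searched on both strands. Of all windows, 6.02% held the first and 3.45% the second. Absence of a match says only that these letters are not in these windows.

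Tdh, the first enzyme of threonine breakdown, had an RPKM of 2.27 in the ICM (43 reads) and 0.356 in the whole blastocyst (8 reads). The ratio was 6.38 (2.97 to 15.7), and the difference on log2(RPKM + 1) was 1.27, at percentile 93.8 of the genes compared. Tdh passed the filter only through its ICM value, so this percentile is no support. Gcat, which cleaves the product of TDH to glycine and acetyl-CoA, had an RPKM of 0.610 in the ICM (28 reads) and 0.128 in the whole blastocyst (7 reads), a ratio of 4.75 (2.03 to 12.9). Both genes of the route were higher in the ICM, at low read numbers, and a pseudogene shares part of the Tdh sequence. The ratio of Gcat to Tdh reads in the ICM was 0.744 of that in the whole blastocyst, with an interval of 0.210 to 2.72 that includes 1 and is too wide to show that they moved alike. Tdh was a gene of middling level in the ICM, where 55.7% of genes with a read had its RPKM or less, and of low level in the whole blastocyst, where 24.3% did. Of 4 other genes of threonine and serine breakdown, 3 had 2 reads or fewer. Sds, the serine and threonine dehydratase gene, had 0 reads in the ICM and 2 in the whole blastocyst, and Sdsl and the threonine aldolase gene Tha1 had none in either library. Srr, serine racemase, had an RPKM of 5.28 in the ICM and 6.75 in the whole blastocyst.

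**Figure D1:**
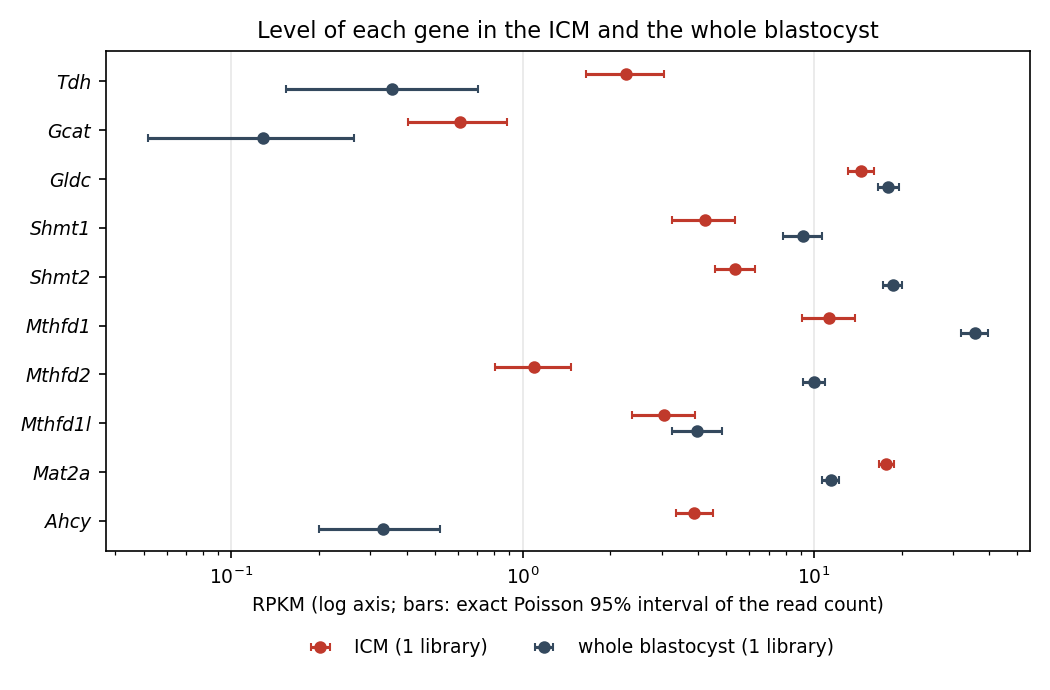
RPKM of the 10 genes on a log axis in the ICM library (red, upper point of each pair) and the whole-blastocyst library (dark, lower point), with exact Poisson 95% intervals of the read counts. Ahcy, Tdh and Gcat lie to the right in the ICM (3.89, 2.27 and 0.610 in the ICM against 0.333, 0.356 and 0.128 in the whole blastocyst), while Mthfd2 lies to the left (1.10 in the ICM against 10.03 in the whole blastocyst).

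The glycine cleavage system breaks glycine down in mitochondria and passes its carbon to folate. Gldc encodes its P-protein, the decarboxylase. Gldc had an RPKM of 14.6 in the ICM (366 reads) and 18.03 in the whole blastocyst (538 reads), a ratio of 0.808 (0.705 to 0.924). That was lower as deposited and 1.27-fold higher when centred (1.11 to 1.46), so its direction depends on the scaling between the libraries. It was the second most abundant of the 10 genes in the ICM. Its partners differed among themselves. Amt, the T-protein that hands the carbon to tetrahydrofolate, had 10.09 in the ICM and 3.53 in the whole blastocyst (106 reads in the ICM and 44 in the whole blastocyst), a ratio of 2.86 (1.99 to 4.16). Gcsh, the H-protein that carries the intermediate, had 13.7 in the ICM and 39.5 in the whole blastocyst (2.87-fold lower, 2.59 to 3.19). Dld, the L-protein, which also serves pyruvate dehydrogenase, had 11.7 in the ICM and 54.4 in the whole blastocyst (4.64-fold lower, 4.11 to 5.27). By the deposited RPKM, Gldc, Amt, Gcsh and Dld lay between 10.09 and 14.6 in the ICM and between 3.53 and 54.4 in the whole blastocyst. The ratio of Gldc to Tdh reads in the ICM was 0.127 of that in the whole blastocyst (0.0509 to 0.277). The ratio of Gldc to Gcsh reads was 2.32 times as high in the ICM (1.95 to 2.76).

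Both serine hydroxymethyltransferase genes had lower levels in the ICM. Shmt2, the mitochondrial enzyme, had an RPKM of 5.36 in the ICM (158 reads) and 18.6 in the whole blastocyst (652 reads), 3.48-fold lower (2.92 to 4.16). Shmt1, the cytosolic enzyme, had 4.22 in the ICM (67 reads) and 9.17 in the whole blastocyst (173 reads), 2.18-fold lower (1.63 to 2.93). On log2(RPKM + 1) Shmt2 was past 2-fold at -1.63 and Shmt1 just short of it at -0.96. Centred, the difference was -0.97 for Shmt2 and -0.31 for Shmt1. The ratio of Shmt2 to Shmt1 reads, which depends neither on scaling nor on gene length, was 0.626 of the whole-blastocyst ratio in the ICM (0.445 to 0.887). Shmt2 reads were thus reduced more than Shmt1 reads, though the interval may be too narrow, as said above. The last exon of Shmt1 also overlaps another gene, as described below, so its reads are less certain. The RPKM of Shmt2 stayed the higher of the pair in both libraries. Shmt2 and Gldc are both mitochondrial suppliers of folate-bound carbon, and in the ICM the ratio of their reads was 0.356 of that in the whole blastocyst (0.284 to 0.446).

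The folate-interconverting genes differed among themselves. Mthfd2, the mitochondrial dehydrogenase and cyclohydrolase known for its high expression in many tumours, had an RPKM of 1.10 in the ICM (46 reads) and 10.03 in the whole blastocyst (499 reads). It was 9.14-fold lower (6.75 to 12.6), the lowest ratio of the 10 genes, and 92.2% of all genes compared had a higher difference. Mthfd1, the trifunctional cytosolic enzyme, had 11.3 in the ICM (95 reads) and 35.6 in the whole blastocyst (356 reads), 3.16-fold lower (2.51 to 4.002). Mthfd1l, the mitochondrial enzyme that releases formate, had 3.06 in the ICM (66 reads) and 3.98 in the whole blastocyst (102 reads), and its ratio of 0.768 had an interval of 0.555 to 1.06 that includes 1. Centred, its ratio was 1.21 (0.875 to 1.67). Relative to Mthfd1 reads, Mthfd2 reads in the ICM were 0.345 of the whole-blastocyst ratio (0.231 to 0.511) and Mthfd1l reads 2.42 times it (1.62 to 3.62). The mitochondrial genes thus did not move as a unit, with Mthfd2 below and Mthfd1l above the cytosolic Mthfd1. Mthfd2l, the paralogue of Mthfd2, had no read in either library.

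**Figure D2:**
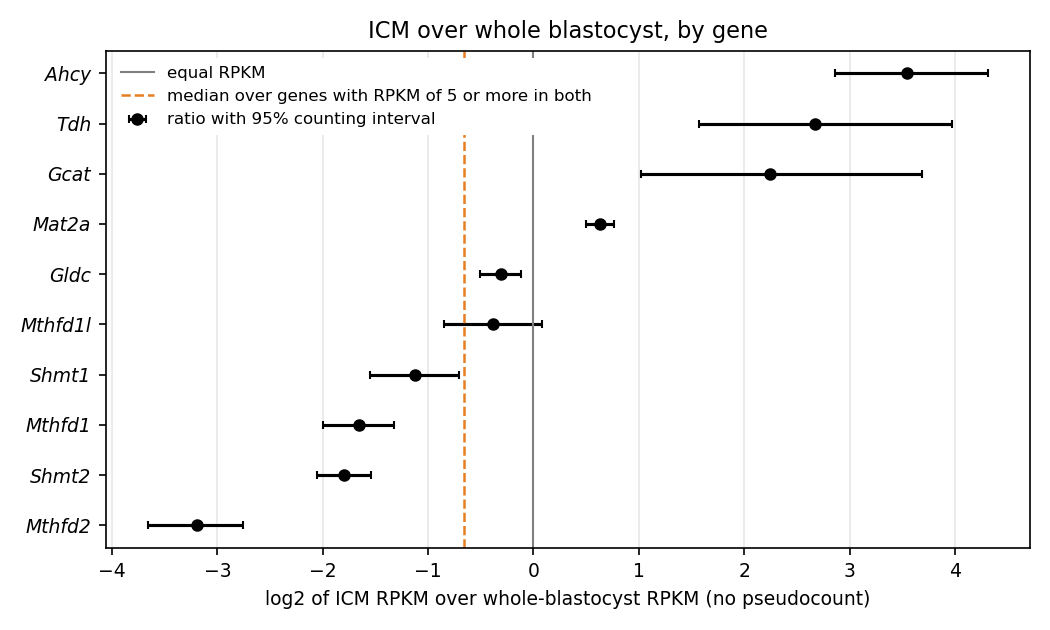
Log2 ratio of ICM RPKM to whole-blastocyst RPKM for each of the 10 genes, without a pseudocount and with exact 95% counting intervals. The dashed line marks the median of -0.66 among the 3013 genes at an RPKM of at least 5 in each library (computed with a pseudocount of 1), and Ahcy (ratio 11.7) and Mthfd2 (ratio 0.109) form the 2 ends.

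In the methionine cycle, Mat2a and Ahcy were both higher in the ICM. Mat2a, the catalytic subunit of SAM synthetase outside the liver, had an RPKM of 17.7 in the ICM (1073 reads) and 11.4 in the whole blastocyst (821 reads), a ratio of 1.55 (1.42 to 1.70), or 2.45 when centred (2.23 to 2.68). It had the highest RPKM of the 10 genes in the ICM and rank 4 in the whole blastocyst. Ahcy, which hydrolyses S-adenosylhomocysteine, had 3.89 in the ICM (187 reads) and 0.333 in the whole blastocyst (19 reads), a ratio of 11.7 (7.27 to 19.8). A near copy of its last exon makes the source of these reads uncertain. The reads of Ahcy relative to those of Mat2a were 7.53 times as high in the ICM (4.64 to 12.9). As deposited, related genes did not follow. Of 6 compared methionine-cycle genes other than Mat2a and Ahcy, 4 were at least 2-fold lower as deposited, beside 44.0% of all genes. Centred, all 6 were within 2-fold, beside 62.7% of all genes. Mat2b, the regulatory subunit of SAM synthetase, was 2.08-fold lower (1.87 to 2.31), with 14.7 in the ICM and 30.6 in the whole blastocyst, and the ratio of Mat2a to Mat2b reads was 3.23 times as high in the ICM (2.80 to 3.72). Ahcyl1, an AHCY-like protein with a role in calcium signalling, had 5.53 in the ICM and 15.1 in the whole blastocyst (2.74-fold lower, 2.45 to 3.06), and the ratio of Ahcy to Ahcyl1 reads was 32.0 times as high in the ICM (19.6 to 54.9). Ahcyl2 had 6.57 in the ICM and 6.46 in the whole blastocyst. On the remethylation side, Mtrr, methionine synthase reductase, was 3.60-fold lower (2.78 to 4.73), and Mtr, methionine synthase itself, had 0 reads in the ICM and 11 in the whole blastocyst. Slc25a26, which carries SAM into mitochondria, was 2.65-fold lower (2.06 to 3.43). Mat1a, the liver form, had no reads.

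**Figure D3:**
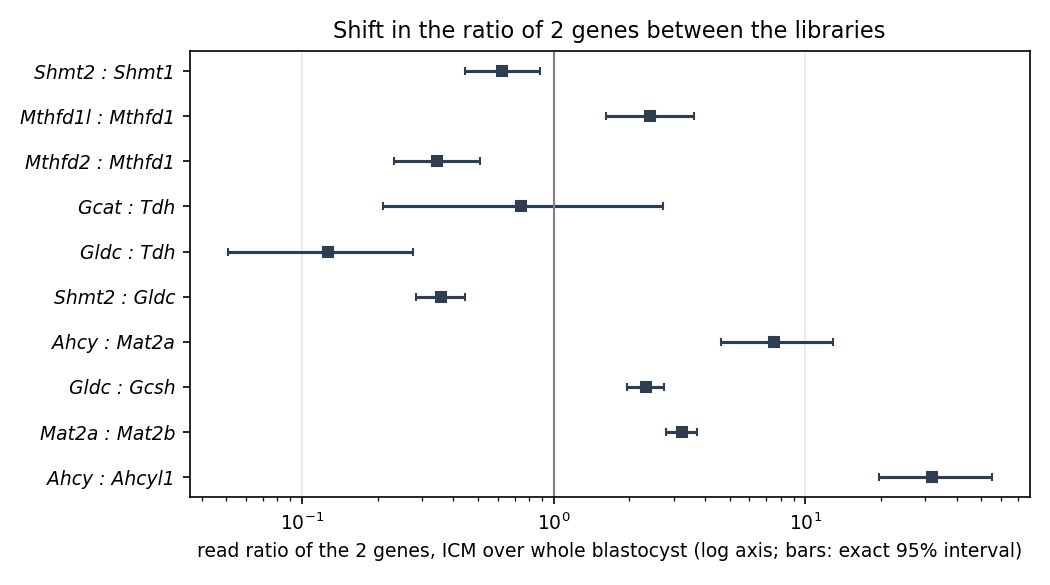
Ratio of the reads of 2 genes in the ICM divided by the same ratio in the whole blastocyst, on a log axis with exact 95% intervals, for 7 planned pairs and the 3 lowest rows added after the values were seen. A value of 1 means that both genes changed alike. Only the interval of Gcat to Tdh (0.210 to 2.72) includes 1.

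The rest of the pathway was followed with 68 further genes in 12 groups, of which 67 were matched and 44 reached the filter. Of the 44, Amt alone (2.27%) was higher in the ICM by 2-fold or more and 22 (50%) were lower, beside 8.96% and 44.0% of all genes, with a median of -0.97 in the list and -0.84 over all genes. The share of lower genes was thus near that of all genes. Centred, 4 were higher (16.9% of all genes were) and 12 lower (20.5% of all genes were). Unless called centred, fold values of single wider genes, here and above, are as deposited. They include the general shift of 1.58-fold toward lower ICM values. Both serine synthesis genes that were compared were at least 2-fold lower in the ICM as deposited (44.0% of all genes were). Centred, 1 of the 2, Psat1, was (20.5% of all genes were). Psat1, the transaminase, was abundant in both libraries at 46.8 in the ICM and 210.3 in the whole blastocyst (4.50-fold lower, 4.28 to 4.73). Psph, the phosphatase, was 2.33-fold lower (1.88 to 2.89), and Phgdh, the first enzyme, had 0 reads in the ICM and 12 in the whole blastocyst.

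The 2 lowest differences of the wider list were those of folate entry genes. Slc46a1, the proton-coupled folate transporter, had 6 reads in the ICM and 299 in the whole blastocyst, 42.0-fold lower (19.1 to 115). Folr1, folate receptor alpha, had an RPKM of 1.72 in the ICM and 24.9 in the whole blastocyst (14.4-fold lower, 9.80 to 22.2). Folr2 had 0 reads in the ICM and 51 in the whole blastocyst. It was 14.3-fold lower against a floor of 3 reads in the ICM library, and its interval began at 11.2-fold lower. Slc25a32, the mitochondrial folate carrier, was 6.95-fold lower (5.27 to 9.31). Trophectoderm markers moved in the same direction (median difference -3.25), and the part of the outer cells in these reductions was not tested. Of other folate enzymes, Mtfmt, the mitochondrial formyltransferase for the initiator tRNA, was 5.90-fold lower (3.68 to 9.95). Aldh1l1, 10-formyltetrahydrofolate dehydrogenase, was 1.65-fold lower as deposited (1.17 to 2.36). Centred, the ratio of Aldh1l1 was 0.955, with an interval of 0.668 to 1.35 that includes 1.

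Of 6 compared purine and thymidylate genes, which spend the carbon units, 5 were within 2-fold on log2(RPKM + 1), both as deposited and centred, beside 47.1% of all genes as deposited and 62.7% centred. Paics, at 148.4 in the ICM and 206.01 in the whole blastocyst, was the most abundant of the wider list in the ICM, and Gart had 13.7 in the ICM and 20.4 in the whole blastocyst. Atic, which catalyses the last steps of purine synthesis, was the exception, with 14.2 in the ICM and 57.2 in the whole blastocyst (4.04-fold lower, 3.65 to 4.48). In polyamine synthesis and methionine salvage, 7 of 8 genes were within 2-fold on that scale as deposited, beside 47.1% of all genes. Centred, 5 were within 2-fold (62.7% of all genes were), 2 higher (16.9% of all genes were) and 1 lower (20.5% of all genes were). The share within 2-fold was then near that of all genes. Mtap, which starts methionine salvage, had 10.5 in the ICM and 4.92 in the whole blastocyst (2.13-fold higher, 1.87 to 2.43, and 0.95 on log2(RPKM + 1)). Adi1, a later enzyme of that route, was 5.60-fold lower (4.99 to 6.31). Enoph1, which precedes it, was 2.08-fold lower (1.76 to 2.47, and -0.93 on log2(RPKM + 1), so within 2-fold on that scale). Both transsulfuration genes were at least 2-fold lower on that scale as deposited, beside 44.0% of all genes. Centred, 1 of the 2 was, beside 20.5% of all genes. Cbs had 1 read in the ICM and 96 in the whole blastocyst (ratio 0.0124, 0.000310 to 0.0706), and Cth had 12 reads in the ICM and 59 in the whole blastocyst (4.14-fold lower, 2.20 to 8.47). Pemt, which uses SAM to make phosphatidylcholine, had 5 reads in the ICM and 110 in the whole blastocyst (18.5-fold lower, 7.71 to 58.2), and Gnmt and Gamt had none in either library. Of choline oxidation genes, Chdh was 9.33-fold lower (7.74 to 11.3) and Aldh7a1 8.25-fold lower (5.13 to 14.01), while Dmgdh had 1.66 in the ICM and 1.44 in the whole blastocyst. Among transporters, Slc38a1 was 12.2-fold lower (9.73 to 15.5) and Slc3a2, the heavy chain of CD98, 2.22-fold lower (1.97 to 2.50), whereas its partner Slc7a5 was 1.68-fold higher (1.47 to 1.93).

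**Figure D4:**
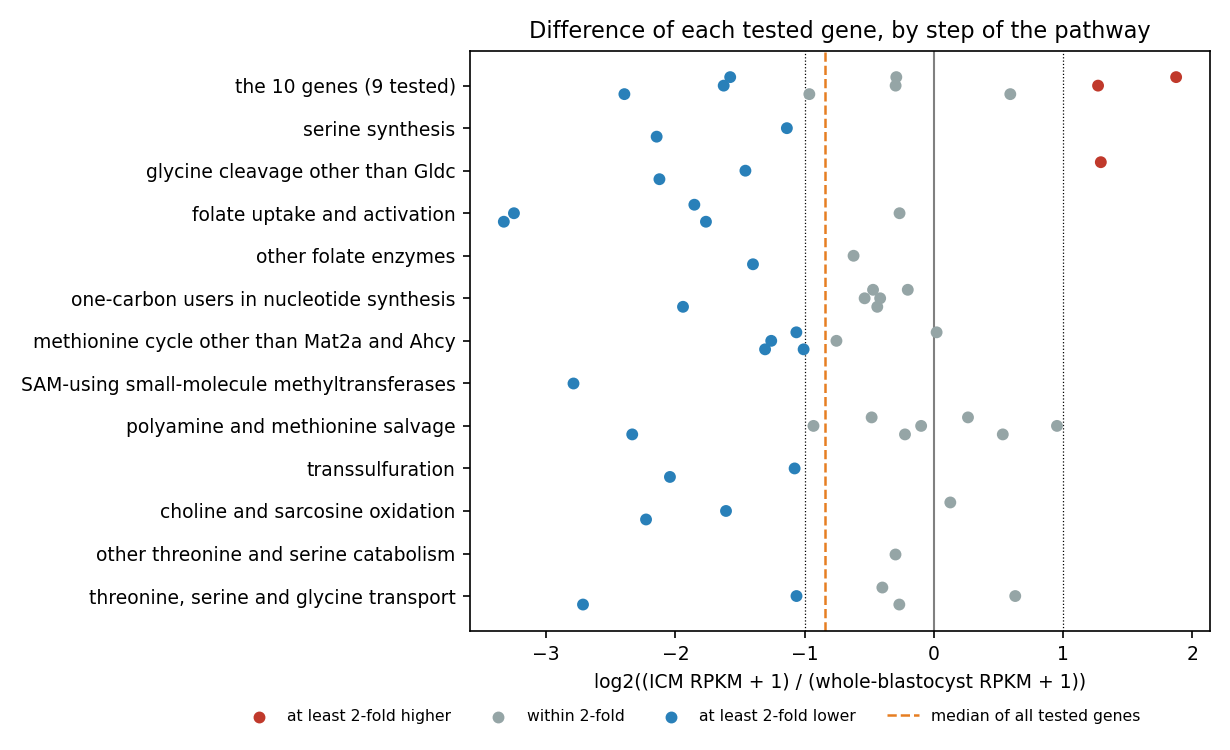
Difference between ICM and whole blastocyst on log2(RPKM + 1) for the 9 compared genes of the set (top row) and the 44 compared genes of the wider list by group, with dotted lines at 2-fold and a dashed line at the median of all compared genes (-0.84). Red points are Ahcy, Tdh and Amt, and blue points, past 2-fold in the other direction, make up 22 of the 44.

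Comparisons of level between genes rest on the length by which the authors divided. RPKM over reads gave that length up to 1 constant. Set beside GENCODE M21 (lengths only, since its build differs from that of the table), it matched the last, 3′-terminal exon of an annotated coding transcript within 1% for 4855 of 6783 genes with several exons and 50 or more whole-blastocyst reads (71.6%). Fitted in the same way, the full transcript length matched for 2.90%, the coding length for 1.56% and the first exon for 1.46%. For 8 of the 10 genes the match was within 1%, for example 500 bases for Tdh, 664 for Gldc and 222 for Mthfd1. For Mthfd2 it was off by 1.18% and for Shmt1 the length of 419 bases matched no annotated last exon, the nearest being 1213. The implied lengths were 6.86% (Mthfd1) to 53.04% (Mthfd2) of the longest transcript. Whether reads were also counted over the last exon alone was not given in the sources used here. If instead reads are divided by the longest transcript, a setting added after seeing the data, Mthfd1 moves to rank 5 of the 10 genes in both the ICM and the whole blastocyst, against rank 3 in the ICM and rank 1 in the whole blastocyst by RPKM, while Mat2a and Gldc stay at ranks 1 and 2 in the ICM. Ratios between the libraries do not depend on this length. Differences on log2(RPKM + 1), their counts past 2-fold and the filter of RPKM 1 do depend on it.

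**Figure D5:**
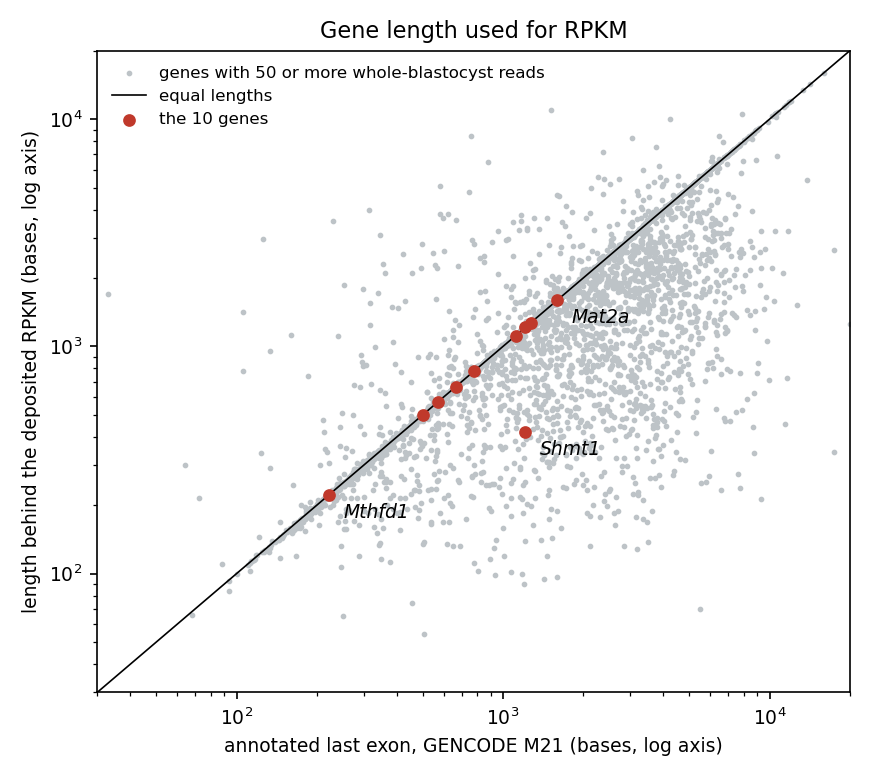
Length behind the deposited RPKM against the annotated last exon, both in bases on log axes, for genes with 50 or more whole-blastocyst reads (grey, longest coding transcript) and the 10 genes (red, nearest annotated last exon). The 10 genes lie on the line of equal lengths except Shmt1, at 419 against 1213 bases.

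Some values are uncertain because other annotated genes hold near copies of the same sequence and the treatment of reads with several matches is not known. Among GENCODE M21 transcripts, a stretch of 852 of the 1271 bases of the Ahcy last exon recurred at 99.8% identity in the retrogene Gm4737, and 140 of the 500 bases of the Tdh last exon at 99.3% in the pseudogene Gm13929. A stretch of 100 bases of Mat2a recurred in the pseudogene Gm9523. The pseudogenes Gm5638 and Gm9826 held 131 bases of Ahcy each. None of these copies was matched in the table. The annotated last exon of Shmt1 overlaps that of Smcr8 on the opposite strand by 184 bases, and Smcr8 had 551 reads in the ICM and 1305 in the whole blastocyst. The use of strand in counting was not given in the sources used here.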

How the data were processed

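Per the labels, RNA from ICMs and whole blastocysts was extracted with PicoPure, amplified with NuGEN Ovation and sequenced as SOLiD fragment libraries. For each gene and library the authors deposited the read count and the RPKM. Per the submitters' processing notes the build was mm9. Aligner and annotation were not given in the sources used here. Deposited RPKM per read was 1.187 times as large in the ICM for all genes, which fixes the scaling. With last-exon lengths, the totals behind RPKM come to about 37888116 reads in the ICM and 44973093 in the whole blastocyst, of which listed counts are 10.9% and 20.6%.

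Differences are log2((ICM RPKM + 1)/(whole-blastocyst RPKM + 1)) over genes that reached an RPKM of 1 in either library. Ratios have exact conditional (Clopper-Pearson) 95% intervals from the counts. Ratios of 2 genes are sample odds ratios with exact conditional 95% intervals (SciPy 1.17.1). With 1 library per group there is no p-value. Near copies (95% identity over 50 bases or more) were searched with BLAST+ 2.17.0. The computation of ratios and intervals was checked on simulated Poisson counts of genes with 50 or more whole-blastocyst reads. Such counts hold no amplification duplicates and no genes as low as Tdh, Gcat and Ahcy, so the check does not bear on either.

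The genes and lists were chosen with earlier results of these data known. All 10 genes are named. Of each wider group, the named genes are the 3 with the largest difference and any with an RPKM of 50 or more. Other wider genes named were chosen after their values were seen, as were 3 of the 10 pairs. Alternatives were other scalings, pseudocounts and filters. The values of 1 gene of the wider list are not reported here, though the list's counts and median include it.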

Additional observations from a re-analysis of the deposited data

How the results depend on the processing

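Scaling decided most counts. With the differences centred, on the TPM scale, scaled to the reads on listed genes or quantile normalized, 1 of the 9 genes compared was at least 2-fold lower in place of 3. Of the 44 wider genes, 4, 6, 5 and 5 were then at least 2-fold higher in place of 1, and 12, 14, 14 and 13 were lower in place of 22. Of all genes compared, 16.9%, 22.02%, 19.1% and 18.7% were then higher and 20.5%, 29.5%, 25.7% and 21.1% lower. The median difference of the 9 genes, -0.30 as deposited, became 0.36 when centred, 0.56 on the TPM scale, 0.45 scaled to listed reads and 0.46 after quantile normalization. Over all genes compared the median, -0.84 as deposited, became -0.18, -0.11, -0.13 and -0.08 in the same order. The cause was not tested, though by construction the first 3 settings raise every ICM value relative to the whole blastocyst by a common step or factor. A pseudocount of 0.1 gave a median of -0.37 (-1.05 over all genes) and 2 higher wider genes, beside 11.5% of all genes. A pseudocount of 5 gave a median of -0.24 (-0.41 over all genes). No gene of the set and no wider gene was then at least 2-fold higher and 10 wider genes were lower, beside 2.46% of all genes higher and 19.6% lower. A filter of RPKM 5 left 6 genes of the set, with none higher, 3 lower and a median of -1.27. Of all genes at that filter, 6.80% were higher and 48.7% lower, with a median of -0.96. Without a filter the median of all 10 was -0.29, beside -0.02 over all genes.

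Mthfd2 stayed at least 2-fold lower in all 9 settings. Shmt1, Shmt2 and Mthfd1 stayed below 0 in all 9, Mat2a above 0 in all 9, and Tdh and Ahcy above 0 in the 8 settings that kept them. Pseudocounts and filters cannot change a sign, and the other scalings apart from quantile normalization only raise ICM values. For Mat2a, Tdh and Ahcy, higher as deposited, only quantile normalization could thus have reversed the sign, so their count of settings is no support. Gldc and Mthfd1l changed sign with scaling. No paired analysis was possible because each group has 1 library. Depth limits Tdh, Gcat and Ahcy most, with 8, 7 and 19 whole-blastocyst reads.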
